A study of Mus musculus with 6 samples.

Results

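The accessible regions around 5 genes that pattern the limb bud outside the HOX genes themselves were examined: Lhx2, Lhx9, Lmx1b, En1 and Ldb1. Each was represented by the ATAC-seq peaks whose midpoint lay inside the gene or within 200 kb of its start site in the GENCODE annotation of mm10, which gave 123 of the 61954 peaks in the table. Lmx1b held 57 of them, Lhx2, Lhx9 and Ldb1 held 18 each, and En1 held 12. ATAC-seq reads the DNA that a transposase can reach, so a peak marks open chromatin, and it measures neither the RNA nor the protein of the gene beside it.

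LHX2, LHX9 and LMX1B are transcription factors that carry a homeodomain, which binds DNA, and a pair of LIM domains, which bind the cofactor LDB1. In the limb bud, Lhx2 and Lhx9 are known from the mesenchyme, where they couple outgrowth to signals from the ectodermal ridge. Lmx1b is made in dorsal mesenchyme under the control of WNT7A from the dorsal ectoderm and gives the limb its dorsal character, whereas En1, an engrailed homeobox gene, is made in ventral ectoderm and keeps Wnt7a out of it.

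Libraries came from distal forelimb buds of mouse embryos at E11.5, 2 from wild-type (WT) and 2 from HOX13-/- embryos, all on a mixed background of C57Bl/6 and 129. The HOX13-/- embryos carried null alleles of Hoxa13 (Hoxa13Str) and of Hoxd13 (Hoxd13lacZ) in every cell, so the loss was not restricted to one limb cell type. A library took 50000 cells from both forelimb buds of 1 embryo, so it mixes mesenchyme, ectoderm and other cells. The 2 proximal forelimb libraries of the study were not analysed here.

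The values were rLog values, the deposited log2 measure of reads per peak, which is scaled between libraries and pulled towards the peak's mean where reads are few. A difference is the HOX13-/- mean minus the WT mean on this scale, so it understates the change of weak peaks, and the number of reads behind a peak is unknown. Peaks were called changed at an adjusted p under 0.05 from limma with Benjamini-Hochberg adjustment over all 61954 peaks. Replicates of the 123 peaks differed by a root mean square of 0.178 between the WT libraries and 0.167 between the HOX13-/- libraries. The peaks fell into 8 promoter peaks of the 5 genes (midpoint within 1 kb of one of their start sites), 23 promoter peaks of other genes inside the windows, and 92 gene-distal peaks.

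Sequences of 5 gene-distal peaks are shown for the motif matches described below. The first group holds the 3 peaks that were lower in HOX13-/- and contained a short form of the HOX13 binding motif (CAATAAA or TCGTAAA, searched on both strands), with the match in capitals. They lay in an intron of Dennd1a in the Lhx2 window (chr2:38167558-38167752), in an intron of Nek6 in the Lhx2 window (chr2:38537632-38537888) and between genes in the Lmx1b window (chr2:33516032-33516169). Matches to TAATTA, the core bound by LIM and engrailed homeodomains and its own reverse complement, are in capitals too. Positions are those of mm10 and the sequence is that of the plus strand.
Lhx2, 171.6 kb upstream: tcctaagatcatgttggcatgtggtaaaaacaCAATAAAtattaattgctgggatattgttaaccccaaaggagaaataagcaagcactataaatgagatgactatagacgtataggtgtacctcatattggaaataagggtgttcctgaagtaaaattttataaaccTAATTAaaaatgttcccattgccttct
Lhx2, 198.5 kb downstream: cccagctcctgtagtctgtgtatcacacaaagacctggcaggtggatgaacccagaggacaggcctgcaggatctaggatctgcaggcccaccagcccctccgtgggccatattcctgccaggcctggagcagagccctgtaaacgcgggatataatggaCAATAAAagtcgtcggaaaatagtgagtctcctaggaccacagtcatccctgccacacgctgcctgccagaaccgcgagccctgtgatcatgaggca
Lmx1b, 124.4 kb downstream: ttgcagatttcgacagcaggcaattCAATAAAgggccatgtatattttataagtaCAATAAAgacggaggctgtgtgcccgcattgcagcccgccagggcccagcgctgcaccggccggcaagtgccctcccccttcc

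The second group holds the peak with the largest increase and the peak with the most TAATTA matches, with those matches in capitals. These were 300 bases of a peak in an intron of the noncoding gene Gm29346 in the En1 window (chr1:120761025-120761324) and 300 bases of an intergenic peak in the Lmx1b window (chr2:33705969-33706268). The last was chosen after its values were seen and did not pass the test (adjusted p = 0.19, limma).
En1, 159.0 kb downstream: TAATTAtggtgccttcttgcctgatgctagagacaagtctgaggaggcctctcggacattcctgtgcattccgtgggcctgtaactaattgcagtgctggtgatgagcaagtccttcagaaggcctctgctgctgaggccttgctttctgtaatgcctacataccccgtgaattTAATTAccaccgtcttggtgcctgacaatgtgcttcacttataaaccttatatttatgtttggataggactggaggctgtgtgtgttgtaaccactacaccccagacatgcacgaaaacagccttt
Lmx1b, 65.7 kb upstream: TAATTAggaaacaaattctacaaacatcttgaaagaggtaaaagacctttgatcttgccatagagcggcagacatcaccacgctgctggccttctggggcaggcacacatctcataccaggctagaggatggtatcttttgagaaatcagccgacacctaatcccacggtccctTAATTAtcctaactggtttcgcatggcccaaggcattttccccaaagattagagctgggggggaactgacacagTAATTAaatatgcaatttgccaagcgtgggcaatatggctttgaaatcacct

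Most of the accessible regions at these genes did not pass the test. Of 123 peaks, 12 were lower in HOX13-/- and 8 were higher, and 103 were neither. That was 9.76% lower, where 8.31% of all peaks were lower, and 6.5% higher, where 11.4% of all peaks were higher. With the library medians set equal, the whole table turned from 5146 lower and 7040 higher to 6811 lower and 6017 higher. No peak passed a 2-fold change in either direction, a limit that 0.224% of all peaks passed downwards and 0.313% upwards. At an unadjusted p under 0.05, 20 of the 123 were lower and 15 higher. The share of all peaks at that threshold was not computed, so these counts cannot be read against a background. Differences ran from -0.73 to 0.79 with a median of -0.02, beside -0.01 over all peaks. Gene-distal and promoter peaks differed in their background, so they were read apart. Of the 92 gene-distal peaks, 8 were lower (8.7%, beside 8.26% of all gene-distal peaks) and 7 were higher (7.61%, beside 15.8%). Of the 8 promoter peaks of the genes, 1 was lower and 0 were higher, where 8.41% and 1.86% of all promoter peaks were. At an unadjusted p under 0.05 the same counts were 1 and 1, again with no background share. Among the 23 promoter peaks of other genes in the windows, 3 were lower and 1 was higher (13.0% and 4.35%, beside the same 8.41% and 1.86%). Both libraries of one genotype lay above both of the other at 73 of the 123 peaks (59.3%), beside 59.2% of all peaks. Of all called peaks, 99.1% did so, so that a lack of overlap at a called peak follows from the call. In bulk tissue, a smaller share of cells with an open region and a less open region per cell cannot be told apart.

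**Figure D1:**
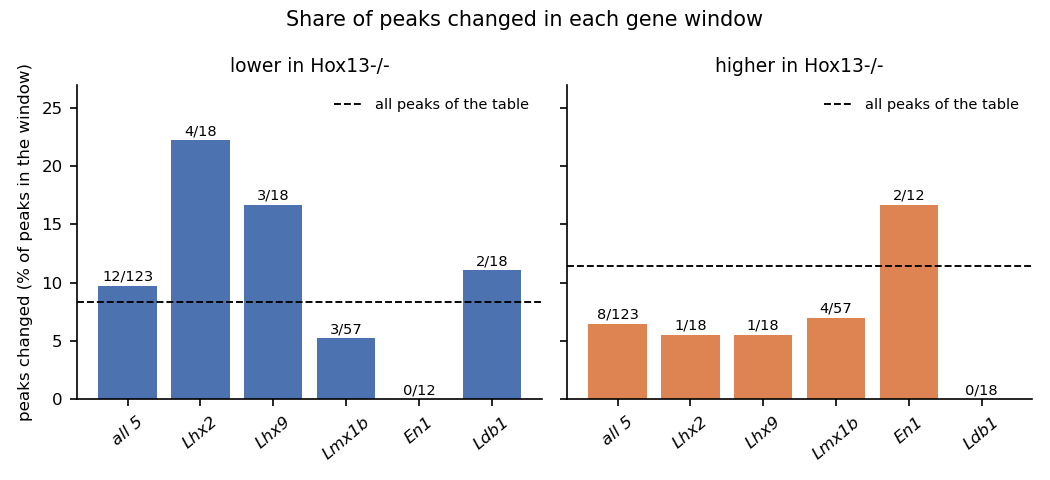
Share of peaks (percent of the peaks in each window) that were lower (left) or higher (right) in HOX13-/-, with the count over each bar and the share of all peaks of the table as a dashed line. Lhx2, Lhx9 and Ldb1 had 4, 3 and 2 of 18 peaks lower (22.2%, 16.7% and 11.1%, beside 8.31% of all peaks). En1 had 2 of 12 higher (16.7%) and 0 lower. All En1 peaks were gene-distal, and of all gene-distal peaks 15.8% were higher, so its share lay near that background.

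The direction of the differences was counted by window. At Ldb1, 16 of 18 differences were below zero and the median was -0.18, where 12 of the 18 peaks were promoters and all promoter peaks of the table had a median of -0.11. At En1, 1 of 12 was below zero and the median was 0.11, where all gene-distal peaks had a median of 0.06. Lhx2 had 13 of 18 below zero and a median of -0.14, while Lhx9 at -0.02 and Lmx1b at 0.04 had medians near that of all peaks. Among gene-distal peaks alone the medians were -0.14 for Lhx2, -0.16 for Lhx9, 0.07 for Lmx1b, 0.11 for En1 and -0.17 for Ldb1. With the GC correction they were -0.178, -0.251, 0.022, 0.035 and -0.091, beside 0.024 over all gene-distal peaks. The En1 median then lay near the background, and the Lmx1b median lay near it with and without the correction. Without WT replicate 2 the Lhx9 median was -0.327 and the Ldb1 median -0.098, without WT replicate 1 the Lhx9 median was -0.068, and without HOX13-/- replicate 1 the Lmx1b median was 0.037. These medians are descriptions with no test.

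**Figure D2:**
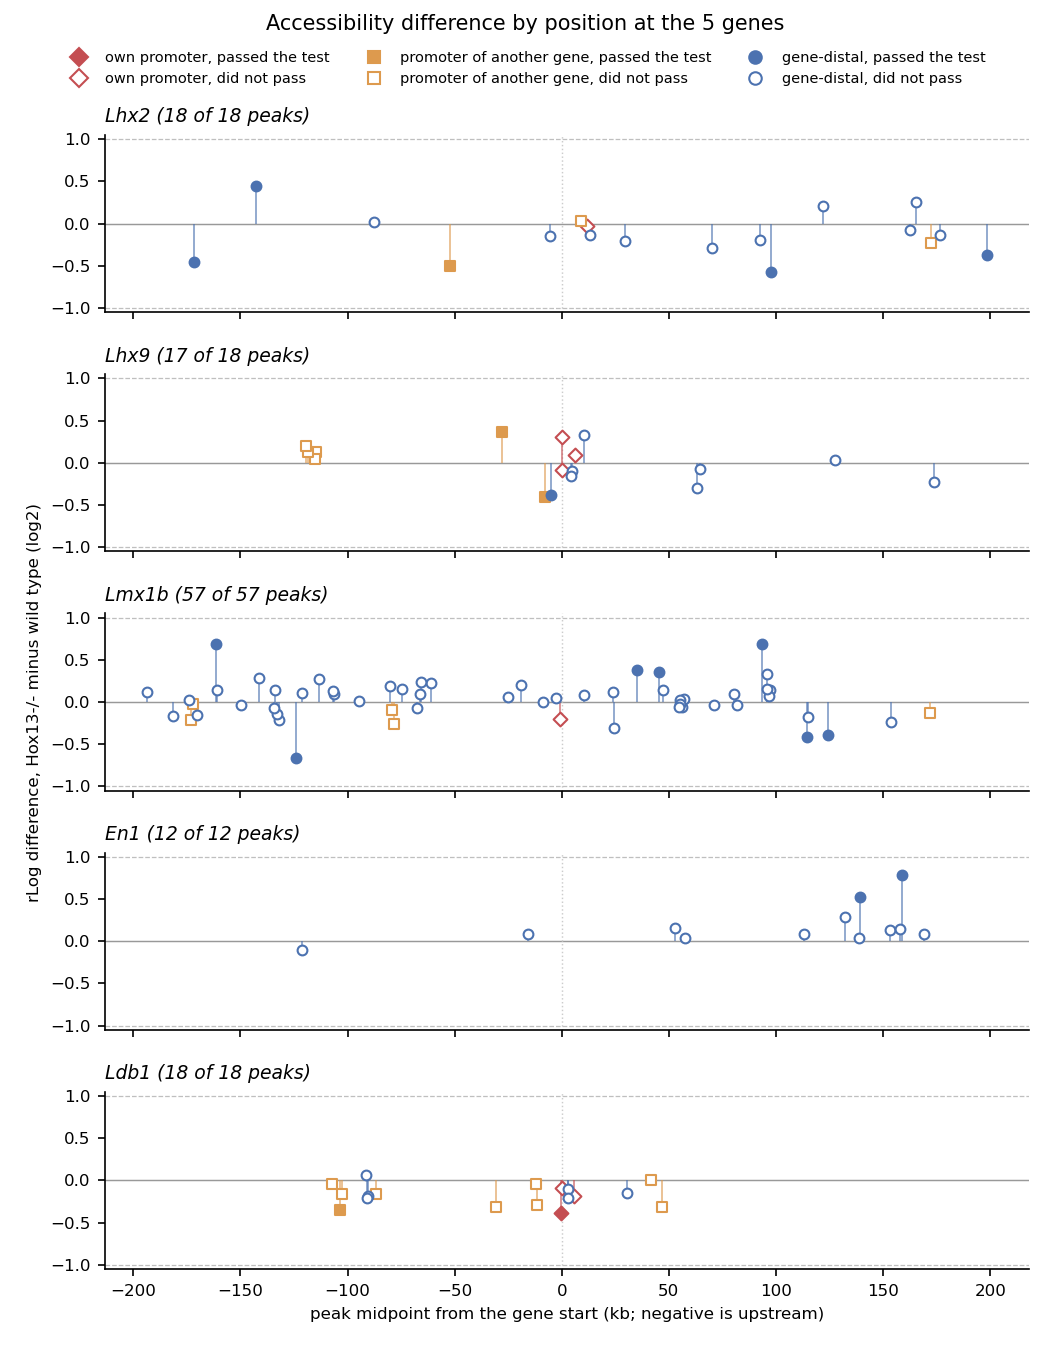
Difference in rLog (HOX13-/- minus WT, log2 scale, 1 symbol per peak) against the distance of the peak midpoint from the gene start in kb, 1 panel per gene, with filled symbols for changed peaks and dashed lines at a 2-fold change. No peak reaches the dashed lines, and the filled gene-distal symbols lie on both sides of zero at Lhx2 and Lmx1b, below it at Lhx9 and above it at En1. One of the 18 Lhx9 peaks is not drawn.

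The Lhx2 promoter peak did not pass the test. The gene lies at chr2:38339281-38369733 on the plus strand, and its promoter peak lay 11.7 kb downstream of the first start site, over UTR sequence at the other annotated start. Its rLog was 8.15 and 8.07 in the WT libraries and 8.04 and 8.12 in the HOX13-/- libraries, so the groups overlapped. The difference was -0.03 (SE 0.12, adjusted p = 0.89, limma).

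Around it, 3 of 14 gene-distal Lhx2 peaks lost accessibility and 1 gained it. That was 21.4% and 7.14%, beside 8.26% and 15.8% of all gene-distal peaks. The peak 97.5 kb downstream, in an intron of Gm13589, read 5.70 and 5.69 in WT against 5.09 and 5.17 in HOX13-/-, both mutant libraries lying far below. The difference of -0.57 (SE 0.13, adjusted p = 2.4e-04, limma) means that the signal fell by 32.5% when the rLog difference is turned back from log2. The peak 171.6 kb upstream, which holds 1 CAATAAA and 1 TAATTA in the sequence above, read 3.39 and 3.57 in WT against 3.01 and 3.03 in HOX13-/-. The difference was -0.46 (SE 0.12, adjusted p = 0.0011, limma), with no overlap between the genotypes. The peak 198.5 kb downstream, with 1 CAATAAA, read 4.80 and 4.56 in WT against 4.15 and 4.46 in HOX13-/-. Here the nearest libraries of the genotypes almost touched, and the difference was -0.37 (SE 0.13, adjusted p = 0.026, limma). The gain lay 142.9 kb upstream in an intron of Dennd1a and held 1 TAATTA. It read 4.62 and 4.68 in WT against 5.16 and 5.03 in HOX13-/-, a difference of 0.44 (SE 0.13, adjusted p = 0.0068, limma).

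The gene-distal Lhx2 peak with the highest rLog (not per length), in an exon of Gm44062 at 162.7 kb downstream, had overlapping libraries and a difference of -0.07 (adjusted p = 0.74, limma). The promoter peak of the neighbouring gene Dennd1a, 52.0 kb upstream and named after its values were seen, read 6.90 and 6.92 in WT against 6.41 and 6.40 in HOX13-/-. It fell by 0.50 (SE 0.13, adjusted p = 0.0010, limma). The calls at 97.5 kb downstream and at the Dennd1a promoter were kept in every alternative that held the peak. The peak 171.6 kb upstream missed the threshold with the GC correction (-0.30, adjusted p = 0.06, limma) and without WT replicate 2 (-0.37, adjusted p = 0.054, limma). The peak 198.5 kb downstream missed it without WT replicate 1 (-0.25) or HOX13-/- replicate 1 (-0.22), and the peak 142.9 kb upstream without the same libraries (0.41 and 0.37).

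Lhx9, the paralogue of Lhx2, had 3 promoter peaks, and none of them passed the test. The gene lies on the minus strand at chr1:138825186-138848577 and has 5 annotated start sites. At the first of them, the peak 0.1 kb upstream read 5.82 and 5.51 in WT and 5.93 and 6.00 in HOX13-/-. Both mutant libraries lay above both WT libraries, but the difference of 0.30 (SE 0.13, adjusted p = 0.082, limma) missed the threshold. It passed with the GC correction (0.40, adjusted p = 0.018, limma) and without WT replicate 1 (0.46, adjusted p = 0.03, limma). The peaks 0.3 kb and 6.0 kb downstream had overlapping libraries and differences of -0.09 and 0.09.

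Of the 9 gene-distal Lhx9 peaks, 2 were lower and 0 were higher (22.2% and 0%, beside 8.26% and 15.8% of all gene-distal peaks). The gene-distal peak 4.9 kb upstream read 5.54 and 5.43 in WT against 5.13 and 5.07 in HOX13-/-, with no overlap. The difference was -0.38 (SE 0.13, adjusted p = 0.023, limma).

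Promoters of neighbouring genes changed in both directions. Of 6 such peaks, 1 was lower and 1 higher (16.7% each, beside 8.41% and 1.86% of all promoter peaks). The promoter peak of 2310009B15Rik, 8.0 kb upstream of Lhx9, was lower (difference -0.41, adjusted p = 0.011, limma), while that of 1700019P21Rik, 27.9 kb upstream, was higher (0.36, adjusted p = 0.032, limma). Both of these were chosen with their values already seen. The gene-distal peak with the highest rLog in the window (not per length) lay inside Lhx9, 10.5 kb downstream in an intron, and read 6.47 and 6.68 in WT and 6.94 and 6.85 in HOX13-/-. Its libraries did not overlap, and its difference of 0.33 (adjusted p = 0.052, limma) was just outside the threshold. It was inside it without WT replicate 2 (0.43, adjusted p = 0.034, limma) and with cyclic loess scaling (0.36, adjusted p = 0.028, limma). These 3 calls were each lost without some single library. The peak 4.9 kb upstream was not called without WT replicate 1 (-0.33) or either HOX13-/- library (-0.41 and -0.35). The 2310009B15Rik promoter was not called without WT replicate 1 (-0.29) or HOX13-/- replicate 2 (-0.37), nor with the GC correction (-0.28, adjusted p = 0.12, limma). The 1700019P21Rik promoter was not called without WT replicate 2 (0.26) or either HOX13-/- library (0.36 and 0.37). It was not called either with library medians equal, quantile or cyclic loess scaling or the GC correction (adjusted p = 0.055, 0.074, 0.073 and 0.16, limma).

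**Figure D3:**
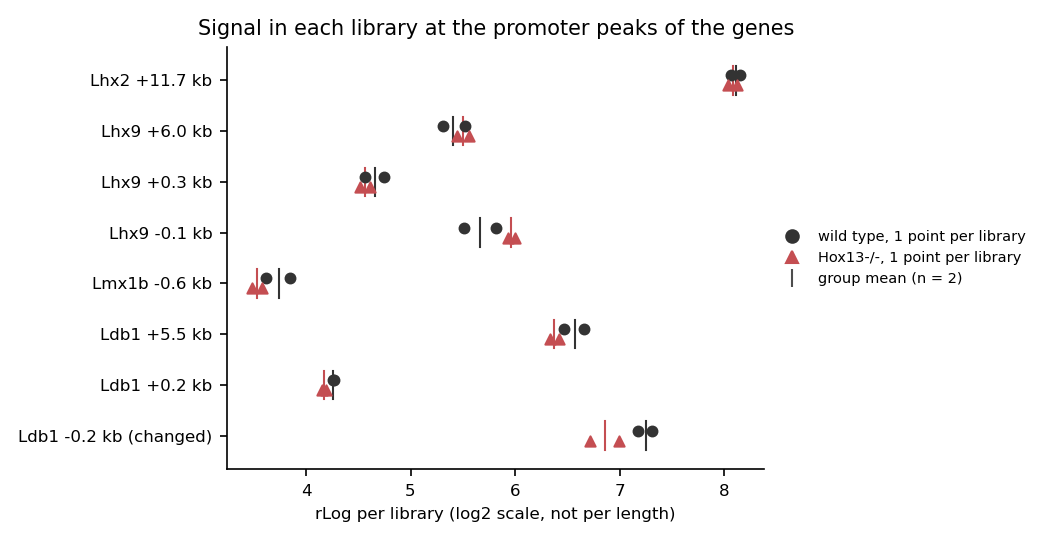
rLog in each library (log2 scale, not per length) at the 8 promoter peaks of the genes, labelled by distance from the first start site, with vertical bars at the group means (n = 2 libraries per genotype). At Ldb1 0.2 kb upstream both HOX13-/- libraries lie below both WT libraries, at Lhx9 0.1 kb upstream both lie above, and at Lhx2 11.7 kb downstream the genotypes overlap.

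Lmx1b, the gene of dorsal mesenchyme, had 1 promoter peak and more peaks in its window than the other 4 genes. The gene lies on the minus strand at chr2:33560965-33640511. The promoter peak 0.6 kb upstream, 99 bases long, lay nearer to a start site of another gene, C130021I20Rik (205 bases away). It was found as a peak in the WT libraries only. It read 3.62 and 3.85 in WT and 3.48 and 3.58 in HOX13-/-. Both mutant libraries were lower, and the difference of -0.20 (SE 0.12) did not pass the test (adjusted p = 0.24, limma).

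Of the 51 gene-distal Lmx1b peaks, 3 lost and 4 gained accessibility. That was 5.88% and 7.84%, beside 8.26% and 15.8% of all gene-distal peaks. The 2 strongest gains were alike in size. The peak 161.5 kb upstream, in an intron of Mvb12b, read 5.50 and 5.71 in WT against 6.29 and 6.30 in HOX13-/-, a difference of 0.69 (SE 0.13, adjusted p = 3.1e-06, limma). The intergenic peak 93.4 kb downstream, past the 3' end of the gene, read 5.83 and 5.67 in WT against 6.35 and 6.52 in HOX13-/-. Its difference was 0.69 as well (SE 0.13, adjusted p = 3.7e-06, limma), an increase of 60.8% when turned back from log2. The genotypes did not overlap at either peak. Inside the gene, an intronic peak 34.9 kb downstream with 1 TAATTA read 5.55 and 5.45 in WT against 5.84 and 5.91 in HOX13-/-. It was higher by 0.38 (SE 0.13, adjusted p = 0.024, limma). A further intronic peak 45.4 kb downstream, named after its values were seen, held 1 CAATAAA. It read 6.31 and 6.10 in WT and 6.75 and 6.35 in HOX13-/-, the libraries nearly touching. Its difference was 0.35 (SE 0.13, adjusted p = 0.038, limma).

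Losses at Lmx1b all lay outside the gene. The strongest was in another intron of Mvb12b, 124.2 kb upstream, with 4.41 and 4.38 in WT against 3.62 and 3.84 in HOX13-/-. The difference was -0.66 (SE 0.13, adjusted p = 7.4e-06, limma), and the signal fell by 36.7% on the rLog scale. The peak 124.4 kb downstream, which holds 2 CAATAAA matches in 138 bases, read 3.73 and 3.80 in WT against 3.43 and 3.32 in HOX13-/-. The difference was -0.39 (SE 0.12, adjusted p = 0.010, limma). The peak 114.6 kb downstream had a difference of -0.41 (SE 0.13, adjusted p = 0.011, limma), and the genotypes did not overlap at either.

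The strongest Lmx1b region did not pass the test. This intergenic peak, 60.8 kb upstream, held 1 CAATAAA and had the highest signal in the window, also per kb. It read 8.38 and 8.23 in WT and 8.59 and 8.45 in HOX13-/-, a difference of 0.22 (SE 0.12, adjusted p = 0.21, limma). It passed the test with quantile scaling (0.32, adjusted p = 0.017, limma) and cyclic loess scaling (0.36, adjusted p = 0.014, limma). Its neighbour 65.7 kb upstream, whose 3 TAATTA matches are in capitals above, read 6.48 and 6.47 in WT and 6.74 and 6.67 in HOX13-/-. The libraries did not overlap, and the difference was 0.24 (SE 0.13, adjusted p = 0.19, limma). The calls at 161.5 and 124.2 kb upstream and 93.4 kb downstream were kept in every alternative that held the peak. The others fell outside the threshold without 1 library. The peak 124.4 kb downstream did so without WT replicate 2 (-0.36) or HOX13-/- replicate 2 (-0.34), and the peak 114.6 kb downstream without WT replicate 2 (-0.36) or either HOX13-/- library (-0.40 and -0.42). The peak 34.9 kb downstream did so without WT replicate 2 (0.33) or either HOX13-/- library (0.41 and 0.34). The peak 45.4 kb downstream did so without WT replicate 2 (0.24) or HOX13-/- replicate 1 (0.15). With quantile scaling the peaks 34.9 and 45.4 kb downstream also missed it (adjusted p = 0.067 and 0.07, limma), as did the former with the GC correction (adjusted p = 0.083, limma) and the latter with library medians equal (adjusted p = 0.065, limma).

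**Figure D4:**
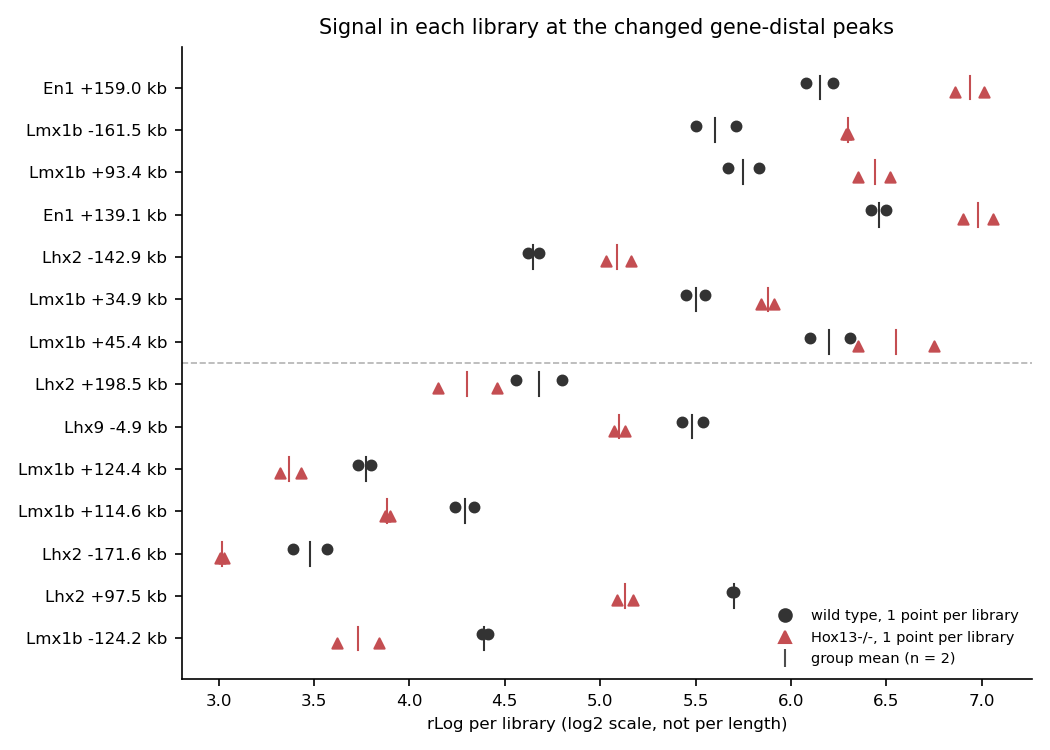
rLog in each library (log2 scale, not per length) at 14 of the 15 changed gene-distal peaks, ordered by difference, with vertical bars at the group means (n = 2 libraries per genotype) and a dashed line between the 7 higher and the lower peaks. The gap between the genotypes is narrowest at Lmx1b 45.4 kb and Lhx2 198.5 kb downstream.

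En1 had no peak inside the gene or within 1 kb of its start site. The gene lies on the plus strand at chr1:120602418-120607992, and the nearest peak was 15.7 kb upstream, with a difference of 0.08 (adjusted p = 0.70, limma). All 12 peaks of the window were gene-distal, and 11 of their differences were above zero, where all gene-distal peaks had a median of 0.06. The exception was a weak peak 121.2 kb upstream in an intron of Marco, with a difference of -0.11.

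Both gains at En1 (16.7% of its peaks, beside 15.8% of all gene-distal peaks) lay far downstream. The peak 159.0 kb downstream, in an intron of Gm29346, read 6.22 and 6.08 in WT against 6.86 and 7.01 in HOX13-/-. The difference of 0.79 (SE 0.13, adjusted p = 4.0e-08, limma), an increase of 72.9% when turned back from log2, was the largest among the 123 peaks. Both TAATTA matches of the peak are in the 300 bases shown. The intergenic peak 139.1 kb downstream read 6.42 and 6.50 in WT against 7.06 and 6.90 in HOX13-/-. It was higher by 0.52 (SE 0.13, adjusted p = 6.5e-04, limma). The genotypes were apart at both peaks, and both calls were kept in every alternative that held the peak. Between them and the gene, the peak with the highest rLog in the window (not per length), 113.0 kb downstream, read 6.78 and 6.77 in WT and 6.92 and 6.82 in HOX13-/-, a difference of 0.09 (adjusted p = 0.65, limma). None of the 12 peaks held either HOX13 word, where 9.4% of all gene-distal peaks held one, so 0 of so few peaks says little.

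En1 is a gene of the ectoderm, so the ectodermal markers were read beside it. Of 8 ectoderm markers, Krt5, Krt14, Krt8 and Trp63 had no promoter peak. The promoter peaks of Epcam, Cdh1, Perp and Wnt7a differed by -0.15 to 0.01, and 0 of the 4 passed the test. Their median rLog was 3.41 and 3.25 in the WT libraries and 3.26 and 3.28 in the HOX13-/- libraries. All 5 markers of limb mesenchyme had a promoter peak, with median rLog from 5.85 to 6.18, and 1 of them, Twist1, was lower (-0.40, adjusted p = 0.014, limma). Of 5 endothelial, 5 blood, 5 muscle precursor and 3 neural crest and glial markers, 2, 1, 1 and 2 had a promoter peak, and 0 of these passed the test. The part of cell composition in the En1 differences was not tested.

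On the rLog scale taken per kb of peak, the highest mean levels at the promoters were 8.26 for Lhx2, 7.95 for Ldb1, 7.38 for Lhx9 and 6.97 for Lmx1b. The Lmx1b value is that of the peak nearer to a start site of C130021I20Rik.

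Ldb1, the cofactor shared by the LIM-homeodomain proteins, was the 1 gene of the 5 with a changed promoter. It lies on the minus strand at chr19:46031570-46045214. The peak 0.2 kb upstream, which the annotation also places in an intron of Pprc1, read 7.18 and 7.31 in WT against 6.99 and 6.72 in HOX13-/-. The difference was -0.39 (SE 0.13, adjusted p = 0.016, limma), by which the signal fell by 23.6% on the rLog scale, where promoter peaks in general had a median difference of -0.11. The call was lost with the GC correction (-0.25, adjusted p = 0.17, limma), without WT replicate 2 (-0.32, adjusted p = 0.13, limma) and without HOX13-/- replicate 2 (-0.25, adjusted p = 0.32, limma). The peaks 0.2 kb and 5.5 kb downstream differed by -0.09 and -0.19 and did not pass.

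None of the 6 gene-distal Ldb1 peaks was called, and 5 of them were below zero. The peak 2.7 kb downstream in an intron differed by -0.21 (adjusted p = 0.22, limma) and the one 91.3 kb upstream in a coding exon of Pitx3 by 0.07. The gene-distal peak with the highest rLog (not per length), 90.3 kb upstream in the UTR of Elovl3, differed by -0.19. The other call in the window was a promoter peak of Pitx3, 103.3 kb upstream and named after its values were seen. It read 6.35 and 6.38 in WT against 6.02 and 6.01 in HOX13-/-, with no overlap, and the difference was -0.35 (SE 0.13, adjusted p = 0.036, limma). The call was lost without any 1 library (-0.37 to -0.34) and with the GC correction (-0.23). The Ldb1 window was also the richest in GC, with a median of 64.4% per peak against 52.1% over all peaks, and 9 of its 18 peaks were promoters of other genes.

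The windows were also unlike in how often a region was found as a peak. The authors searched each library on its own, and 35 of the 123 regions (28.5%) were found in all 4 libraries, beside 31.8% of the table. At Ldb1 it was 12 of 18 (66.7%), with 0 found in both libraries of 1 genotype only. At En1 it was 2 of 12, and 1 was found in both HOX13-/- libraries only. Across the windows, 5 regions (4.07%) were found in both WT libraries only and 10 (8.13%) in both HOX13-/- libraries only, beside 2.98% and 11.2% of the table. The WT replicate 2 library had the fewest regions (51 of the 123, against 74 to 85 in the others), which was also so over the whole table (27241 against 38401 to 45587).

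The sequence of the changed gene-distal peaks was compared with the rest. One of the HOX13 words was found in 3 of the 8 lower peaks, in 1 of the 7 higher peaks and in 3 of the 77 others, as shown for the 3 lower ones above. Each of these 3 lower calls was lost in some alternative setting. The lower gene-distal calls kept in every alternative that held the peak, such as Lhx2 97.5 kb downstream and Lmx1b 124.2 kb upstream, held no HOX13 word. Over all gene-distal peaks the shares were 19.1% of the lower, 12.8% of the higher and 7.57% of the others, and 9.4% overall against 3.6% of promoter peaks. TAATTA was found in 2 of the 8 lower, 3 of the 7 higher and 8 of the 77 other peaks, where all gene-distal peaks had it in 11.3%, 27.5% and 10.9%, and 13.5% overall. By their letters a HOX13 word and a TAATTA cannot overlap, so matches to them were counted apart. The lower peaks had a median GC content of 44.6% and a median length of 228 bp, the higher ones 53.2% and 536 bp, and the others 53.0% and 178 bp, and longer sequences hold a given word more often. By gene, a HOX13 word was in 3 of 18 Lhx2 peaks, 1 of 18 Lhx9 peaks, 6 of 57 Lmx1b peaks and 1 of 18 Ldb1 peaks. These are matches of letters and not measured binding.

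Other genes of the same pathways were counted in the same way. Their window counts are to be read against the 8.31% lower and 11.4% higher of all peaks. Their promoter counts, here and in the next paragraph, are to be read against the 8.41% lower and 1.86% higher of all promoter peaks. Among 9 further LIM-homeodomain genes, 15 of 128 window peaks (11.7%) were lower and 13 (10.2%) higher, with a median of -0.02. At their 8 promoter peaks 1 was lower, that of Lhx3, a regulator of motor neuron and pituitary identity (-0.42, adjusted p = 0.011, limma), and 0 were higher. Among 8 LIM cofactors, 13 of 195 peaks (6.67%) were lower and 24 (12.3%) higher, and of 22 promoter peaks 1 was lower and 2 were higher. The lower one belonged to Ssbp3, a single-stranded DNA-binding protein that stabilises LDB1, with 7.22 and 7.42 in WT against 6.98 and 6.86 in HOX13-/- (-0.40, adjusted p = 0.013, limma). Both higher ones belonged to Lmo3, a LIM-only protein, from a family that also binds LDB1. Its stronger promoter peak read 5.64 and 5.57 in WT against 6.14 and 6.47 in HOX13-/-, a difference of 0.70 (adjusted p = 1.9e-06, limma).

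Among 11 genes that set or read the dorsoventral axis, 29 of 244 window peaks (11.9%) were lower and 24 (9.84%) higher. The 1 changed promoter of 17 belonged to Bmpr1a, the BMP receptor that acts upstream of En1 in ventral ectoderm (-0.34, adjusted p = 0.043, limma). Wnt7a, the dorsal signal that En1 represses, had 14 peaks in its window, of which 0 were lower and 0 higher. Its promoter read 3.18 and 3.01 in WT and 2.97 and 2.98 in HOX13-/-, a difference of -0.13 (adjusted p = 0.46, limma). At 7 outgrowth genes, such as Fgf10 and Grem1, 9 of 112 window peaks (8.04%) were lower and 15 (13.4%) higher, and 0 of 7 promoter peaks passed the test. None of these peaks was shared with the windows of the 5 genes.

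Ranked by the distance between promoter profiles over the 4 libraries, the nearest of 28 listed genes was Wnt7a for Lhx2 (distance 0.12), Lhx4 for Lhx9 (0.21), Gdf5 for Lmx1b (0.11) and Ssbp3 for Ldb1 (0.12). The differences between genotypes were -0.03 and -0.13 for the first pair, 0.30 and 0.27 for the second, -0.20 and -0.11 for the third and -0.39 and -0.40 for the last. The pairs were picked on these same libraries, so likeness in a pair follows from the choice.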

How the data were processed

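ATAC-seq of distal forelimb buds was compared between 2 wild-type and 2 HOX13-/- libraries. Per the study's methods and the submitters' processing notes, the authors used Bowtie2 (2.3.1) for alignment to mm10, MACS2 (2.1.1.20160309) for peaks in every library, and HOMER (4.9.1) to merge peaks and quantify their reads. Handling of duplicates and the transposase offset was not given in the sources used here. The authors deposited rLog values (log2 scale) from DESeq2 for each peak and library. Their own log2 fold changes, p-values and adjusted p-values were deposited too and were not read. No read counts per peak were used, so no counting interval is given.

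Genotypes were compared with limma (3.58.1) in R (4.3.3) on all 61954 peaks, with a genotype term, a variance trend and two-sided tests. The script was tested on simulated data. An exact permutation of 2 against 2 libraries cannot give a two-sided p under 0.33, and the limma test borrows its spread from all peaks. Embryos were separate, but n was 2 per genotype. Genes came from the GENCODE M21 basic annotation. Peaks with values in the text were every promoter peak of the genes, up to 3 gene-distal peaks per gene and direction with the smallest p among those called and not overlapping (otherwise the 1 with the smallest p), and the gene-distal peak with the highest mean rLog. The genes, lists and rules were chosen with earlier results of these data known. Same-numbered replicates were not paired (correlation of their deviations -0.011). Alternatives covered scaling, GC correction (lowess, span 0.3), filters, thresholds, windows, a replicate block and leaving out each library. Markers and pathway genes were read at promoter peaks or in 200 kb windows. 0 columns of per-sample values had no known sample. One peak of the Lhx9 window is counted but not reported on its own here.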

Additional observations from a re-analysis of the deposited data

How the results depend on the processing

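Every named difference was recomputed under 16 alternative settings where they applied. Of the 20 changed peaks, 8 passed the test in every setting that held them, 4 lower and 4 higher. Among them were Lhx2 97.5 kb downstream, the Dennd1a promoter 52.0 kb upstream of Lhx2, Lmx1b 124.2 and 161.5 kb upstream and 93.4 kb downstream, and En1 139.1 and 159.0 kb downstream. Of 488 recomputed single differences, 407 kept their direction and side of the threshold, 57 lost it, 10 gained it and 14 changed sign; the causes were not tested. rLog values carry no read number, so depth limits weak peaks to an unknown degree.

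Counts of the main comparison moved by over 1.5 times in these settings. With library medians equal, higher Lhx9 peaks went from 1 to 0 and lower Ldb1 peaks from 2 to 5, and higher Lhx9 peaks were also 0 with quantile scaling and 2 with no variance trend. Within the upper 75% of peaks by mean, higher Lhx9 peaks were 2 and lower Ldb1 peaks 4. Within the upper 50%, where fewer peaks were tested, lower gene-distal peaks were 3, lower Lhx2 peaks 2, higher Lhx9 peaks 2, lower Lmx1b peaks 0 and lower Ldb1 peaks 5, and the En1 gene-distal median was 0.306. At an adjusted p under 0.01, lower gene-distal peaks were 4, lower promoter peaks 0, Lhx9 peaks 1 lower and 0 higher, Lmx1b peaks 1 lower and 2 higher, and lower Ldb1 peaks 0. With the GC correction, promoter peaks were 0 lower and 1 higher, lower Lmx1b peaks 5 and lower Ldb1 peaks 0, and the En1 and Ldb1 gene-distal medians were 0.035 and -0.091. Within 100 kb, which holds fewer peaks, Lhx2 peaks were 2 lower and 0 higher, lower Lmx1b peaks 0, higher En1 peaks 0 and lower Ldb1 peaks 1.

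Leaving out 1 library at a time gave 5 to 7 lower and 4 to 7 higher gene-distal peaks, and 0 to 1 lower and 0 to 1 higher promoter peaks of the genes. Higher Lhx2 peaks ran from 0 to 1, lower Lhx9 peaks from 1 to 3, higher Lhx9 peaks from 0 to 2, lower Lmx1b peaks from 1 to 3, higher Lmx1b peaks from 2 to 4 and lower Ldb1 peaks from 0 to 1. The gene-distal Lhx9 median ran from -0.327, without WT replicate 2, to -0.068. The lone library of a genotype is then assumed to vary like the pair of the other.

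Sign changes were all in small differences that passed no test. Lhx2 11.7 kb downstream was 0.05 with quantile scaling, 0.10 with cyclic loess scaling and 0.07 with the GC correction, and ran from -0.07 to 0.01 over single omissions. With the GC correction En1 113.0 kb downstream was -0.01 and Ldb1 0.2 kb downstream was 0.06. Over single omissions Lhx2 162.7 kb downstream ran from -0.21 to 0.07, Lhx9 6.0 kb downstream from -0.02 to 0.19 and Ldb1 91.3 kb upstream from -0.09 to 0.22.

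Same-numbered replicates shared only a number (correlation of deviations -0.011). With the replicate block, 4967 of all peaks were lower and 7013 higher, and no call among the named differences changed. The replicate block with the GC correction gave the values of the GC correction alone: promoter peaks 0 lower and 1 higher, lower Lmx1b peaks 5, lower Ldb1 peaks 0, and differences of 0.07 at Lhx2 11.7 kb, -0.01 at En1 113.0 kb and 0.06 at Ldb1 0.2 kb downstream.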
